A study of Mus musculus with 81 samples.

Results

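Bulk chromatin accessibility of mouse embryonic fibroblasts was compared between 12h and 36h of reprogramming, as the 199056 peaks listed at 12h against the 137173 listed at 36h. A 12h peak with no overlapping 36h peak (1 bp or more) was called lost, a 12h peak with one was called kept, and a 36h peak with no overlapping 12h peak was called gained. This gave 70821 lost, 128235 kept and 12466 gained peaks, from 6 of the 81 samples of the series. The 12h and 36h groups had 3 libraries each, and the deposited list of each group was called on merged replicates, so no spread between replicates exists for these lists. Intervals given below are 95% Wilson intervals and cover counting error only, and read depth behind the lists is unknown.

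The fibroblasts carried 1 copy each of a doxycycline-driven transgene for the OKSM factors at Col1a1 (Col1a1::tetOP-OKSM het), a transactivator (R26-M2rtTA het) and the Oct4GFP reporter, on a Black6-129X1/SvJ background at passage 2-3. All reprogramming cells received doxycycline at 2 µg/mL and ascorbic acid at 50 µg/mL. Cells were pulsed with EdU (20 µM, 10 minutes), and the bulk libraries are the DNA that the streptavidin beads left unbound. In the unchased arm, which is the one analysed, cells were collected after the pulse. A separate mature arm was chased with 10 µM thymidine and collected 2 hours after the label, and its bulk lists at 12h (179656 peaks) and 36h (142681 peaks) served as a repeat. Wild-type 129/Ola embryonic stem (ES) cells at 0h, which carry no transgene by their label, gave the reference list of 154235 peaks. At 14h, 3 libraries with aphidicolin (5 µg/mL, added at 4h for 10h) and 3 without it were also used.

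Reprogramming by OCT4, KLF4, SOX2 and MYC turns fibroblasts towards pluripotency by closing elements used by fibroblast factors and opening elements used by pluripotency factors. Fibroblast enhancers are rich in sites for AP-1, the dimers of FOS and JUN proteins, and for RUNX and TEAD factors. Promoters of widely expressed genes usually lie in CpG-rich DNA and stay accessible in most cell types, whereas distal elements differ between them. ATAC-seq reads such accessible DNA through the insertions of the Tn5 transposase.

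Promoters with a peak at 12h and none at 36h carried the AP-1 motif more often than other promoters. Only promoter windows were searched for motifs, and the distal lost and gained peaks were not. Of all lost peaks 3.51% lay within 1 kb of an annotated start. A promoter was taken as the 250 bases before to 50 after a RefSeq start (GRCm38.p6, which shares coordinates with mm10). Of 1124 promoter windows with a peak at 12h only, 17.97% (15.8 to 20.3) held TGANTCA on either strand. The share was 20.6% (17.1 to 24.5) of the 452 that were 12h-only in both arms, 5.95% of 15576 with a peak at both times, 8.91% of 15981 with neither and 7.81% of all 32851 windows. Of 170 windows with a peak at 36h only, 7.65% (4.52 to 12.6) held it. Several windows can belong to 1 gene and overlap, so they are not independent.

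The 6 promoters shown here are the first 3 of each direction by a rule that took list genes first and then the strongest peak. The bases run 5′ to 3′ up to the start site, in lower case with matches to the 12 motifs searched in capitals. The first 3 had a peak at 12h only in both arms. They belong to Runx1, a RUNX transcription factor (chr16:92826075-92826324, minus strand), Il1a, the cytokine interleukin-1 alpha (chr2:129309973-129310222, minus strand), and Batf, a partner of JUN proteins in AP-1 (chr12:85686470-85686719, plus strand).
Runx1: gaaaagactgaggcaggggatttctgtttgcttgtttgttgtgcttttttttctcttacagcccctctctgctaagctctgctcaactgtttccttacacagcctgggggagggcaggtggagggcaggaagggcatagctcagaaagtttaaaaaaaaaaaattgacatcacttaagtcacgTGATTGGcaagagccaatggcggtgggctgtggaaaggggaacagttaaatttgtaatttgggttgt
Il1a: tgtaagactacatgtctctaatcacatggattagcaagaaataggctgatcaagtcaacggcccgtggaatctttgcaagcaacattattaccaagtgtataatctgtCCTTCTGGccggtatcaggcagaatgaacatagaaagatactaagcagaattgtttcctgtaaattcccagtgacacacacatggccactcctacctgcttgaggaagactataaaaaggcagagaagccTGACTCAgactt
Batf: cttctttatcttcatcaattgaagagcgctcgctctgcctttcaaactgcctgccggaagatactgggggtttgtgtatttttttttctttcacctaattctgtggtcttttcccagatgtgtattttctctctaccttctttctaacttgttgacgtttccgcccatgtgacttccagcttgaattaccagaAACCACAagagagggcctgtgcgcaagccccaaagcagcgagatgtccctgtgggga
The capitals mark a CCAAT box of NF-Y 67 bases before the start of Runx1, an AP-1 match 12 bases before that of Il1a with a CTCF core match at 142, and a RUNX match 57 bases before that of Batf. The next 3 had a peak at 36h only in both arms. They belong to L1td1, an RNA-binding protein of pluripotent cells (chr4:98726504-98726753, plus strand), Rnase1, a secreted ribonuclease (chr14:51146768-51147017, minus strand), and Aldh1a7, an aldehyde dehydrogenase (chr19:20727557-20727806, minus strand).
L1td1: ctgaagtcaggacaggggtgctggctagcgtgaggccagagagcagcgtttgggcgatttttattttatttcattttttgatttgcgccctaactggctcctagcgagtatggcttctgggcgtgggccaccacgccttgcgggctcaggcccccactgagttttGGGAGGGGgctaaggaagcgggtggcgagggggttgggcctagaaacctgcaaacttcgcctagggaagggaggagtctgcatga
Rnase1: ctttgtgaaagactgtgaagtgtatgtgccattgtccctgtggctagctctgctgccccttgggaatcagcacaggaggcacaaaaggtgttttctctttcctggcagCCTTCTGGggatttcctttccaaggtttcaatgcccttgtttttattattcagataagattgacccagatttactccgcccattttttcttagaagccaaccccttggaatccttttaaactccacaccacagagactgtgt
Aldh1a7: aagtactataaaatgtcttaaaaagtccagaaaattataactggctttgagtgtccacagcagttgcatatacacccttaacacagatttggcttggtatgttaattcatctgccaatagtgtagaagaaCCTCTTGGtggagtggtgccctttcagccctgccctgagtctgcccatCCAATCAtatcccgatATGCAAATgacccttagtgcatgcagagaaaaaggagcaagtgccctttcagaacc
None of these 3 holds the AP-1 letters, and that of Aldh1a7 holds the octamer of POU factors (ATGCAAAT) 56 bases before the start. Most windows lack the AP-1 letters, which stood in 7.65% of 36h-only and 7.81% of all windows. The octamer stood in 1.76% of 36h-only, 1.87% of 12h-only and 1.74% of all windows, so it was no more common in 36h-only promoters. A further pair of 12h-only promoters was chosen after their sequences were seen, to show the AP-1 match in context. They belong to C3ar1, a complement receptor (chr6:122856158-122856407, minus strand), and Mmp1b, an interstitial collagenase homologue (chr9:7388027-7388276, minus strand).
C3ar1: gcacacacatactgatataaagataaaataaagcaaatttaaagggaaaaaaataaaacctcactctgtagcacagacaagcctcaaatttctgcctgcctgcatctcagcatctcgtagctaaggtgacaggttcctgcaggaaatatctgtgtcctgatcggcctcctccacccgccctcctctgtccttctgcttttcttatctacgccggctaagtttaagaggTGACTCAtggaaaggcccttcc
Mmp1b: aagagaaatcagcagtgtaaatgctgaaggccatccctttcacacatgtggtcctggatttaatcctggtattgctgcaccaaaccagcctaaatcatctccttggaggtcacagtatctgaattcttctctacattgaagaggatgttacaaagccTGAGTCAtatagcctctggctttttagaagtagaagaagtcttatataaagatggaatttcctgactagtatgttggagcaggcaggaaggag
The match lies 22 bases before the start in C3ar1 and 93 in Mmp1b. A match to these letters is a description of the window and no evidence of binding.

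The AP-1 share differed at like peak strength and like base composition. The 12h list was split by the authors' score into 10 bins of equal size, from bin 1 (weakest) to bin 10 (strongest). Among promoters whose peak fell in bin 5, 22.7% (16.1 to 31.0) of 119 12h-only promoters held the motif against 12.0% (8.99 to 15.9) of 341 with a peak at both times, and in bin 7 27.1% (17.4 to 39.6) of 59 against 9.96% (8.08 to 12.2) of 803. The 12h-only share was the higher one in all 10 bins, but the intervals overlapped in bins 1 to 3 and 8 to 10 and stood apart in bins 4 to 7. At a GC content of 45 to 55%, 21.2% (17.9 to 24.9) of 523 12h-only promoters held it, against 11.4% (10.4 to 12.5) of 3289 with a peak at both times and 8.12% of 7473 with none. Of the other motifs, RUNX (TGTGGTT) stood in 7.12% of 12h-only and 3.56% of both-times promoters, but also in 6.77% of promoters without a peak. ETS (CCGGAAGT) went the other way, with 0.623% of 12h-only against 7.22% of both-times promoters. The median GC content was 52% in 12h-only, 61.7% in both-times and 46.5% in 36h-only promoters.

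**Figure D1:**
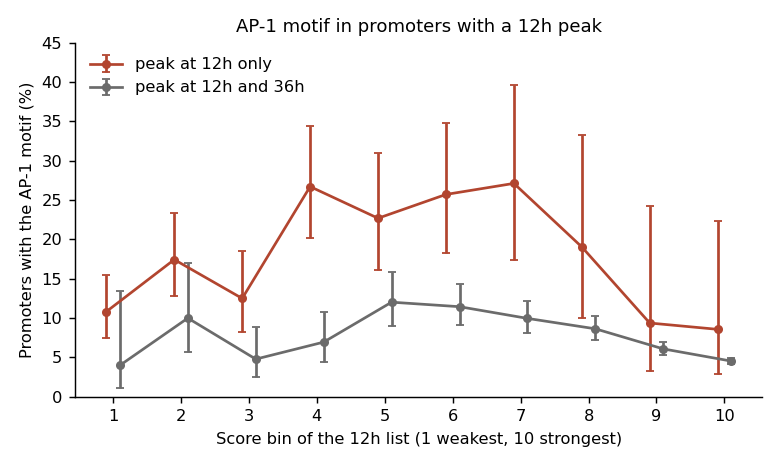
Share of promoters with the AP-1 motif TGANTCA (y axis, percent, with 95% Wilson intervals) by the score bin of the promoter's 12h peak (x axis, 1 weakest, 10 strongest), for promoters with a peak at 12h only and at 12h and 36h. The 12h-only share peaks at 27.1% in bin 7, where the other group has 9.96%.

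Of the 12h peaks, 35.6% (35.4 to 35.8) were lost, and of the 36h peaks, 9.09% (8.94 to 9.24) were gained. With the 12h list cut by score to the 137173 strongest peaks, 20.5% were lost and 21.8% gained. The mature arm gave 27.1% lost and 7.13% gained with its full lists, and 16.8% and 15.7% at equal length. At equal length losses and gains have to be of about the same number, so their balance there is set by the cut and only the size of the turnover can be read.

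Lost and gained peaks were mostly weak and narrow. The median width was 202 bp for lost, 418 bp for kept and 238 bp for gained peaks. Within the 12h list the median score was 227 for lost and 1184 for kept peaks, and within the 36h list it was 131 for gained peaks against 474 for all. In bin 1 of the 12h list 76.2% of peaks were lost, in bin 5 42.0%, in bin 8 6.15% and in bin 10 0.0251%, which is 5 peaks of 19906. Gains went from 33.6% in bin 1 of the 36h list to 0 of 13718 in bin 10, which allows a share of up to 0.0219% (3 counts of the total, not a Wilson limit). The share lost differed little between chromosomes, from 31.9% on chromosome 11 to 37.6% on X among those with over 1000 peaks.

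**Figure D2:**
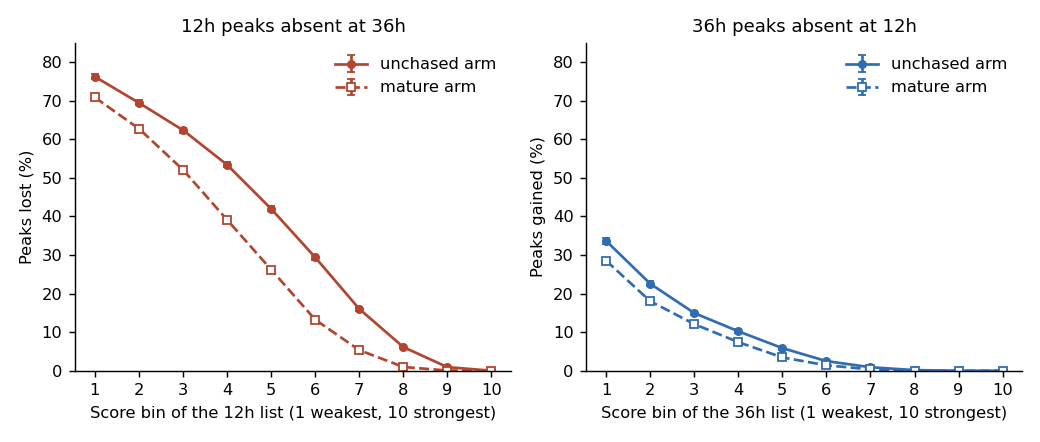
Share of 12h peaks lost (left) and of 36h peaks gained (right), in percent with 95% Wilson intervals, by score bin of the list (x axis, 1 weakest, 10 strongest), in the unchased and the mature arm. Losses run from 76.2% to 0.0251% in the unchased arm, and the mature arm lies below it in all 10 bins.

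The change took place away from gene ends. Of the lost peaks 3.89% (3.75 to 4.04) lay within 1 kb of an end of 1 of 21887 protein-coding gene models, against 13.7% (13.5 to 13.9) of the kept and 4.70% (4.34 to 5.09) of the gained. Within 1 kb of an annotated start the shares were 3.51%, 12.4% and 2.49%. The median distance to a gene end was 34.5 kb for lost, 21.1 kb for kept and 27.1 kb for gained peaks, and 41.3% of lost against 31.5% of kept peaks lay over 50 kb away. At equal list length the gene-end shares were 3.48%, 14.9% and 5.66%. Since kept peaks are stronger, score bins were compared too: in bin 5 3.71% of lost and 7.27% of kept peaks were at a gene end, so the gap was smaller at like score but had the same sign, as in the other 9 bins (bin 10 holds 5 lost peaks).

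Lost peaks were the class least shared with ES cells. An ES cell peak at 0h overlapped 14.1% (13.8 to 14.3) of lost, 42.3% (42.0 to 42.6) of kept and 25.2% (24.4 to 25.9) of gained peaks. At equal list length the shares were 12.1%, 44.1% and 29.6%. Lost peaks had the lower share in all 10 bins, for example 13.4% against 37.2% of kept peaks in bin 5. For gained peaks the comparison differed between arms. In the unchased arm their ES cell share was at or below that of the other 36h peaks of like score in most bins (21.7% against 25.05% in bin 1, 28.0% against 27.9% in bin 3). In the mature arm it was above (32.8% against 21.4%, and 41.9% against 25.3%), and over all gained peaks of that arm it was 38.7%. The difference between the arms was not tested, since each has 1 list per time.

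Gained peaks overlapped the naive list more often than the formative list, which covers less of the genome. Their overlap was 25.2% with ES cells at 0h, 23.7% at 9h and 16.6% with epiblast-like cells (EpiLC) at 48h of ES cell differentiation, in lists of 152932 to 154758 peaks. For kept peaks it was 42.3%, 42.5% and 38.1%. The lists cover 83.5 Mb at 0h, 73.4 Mb at 9h and 59.4 Mb at 48h, and the part of this coverage in the overlaps was not tested. Peaks present at 0h but not at 48h made up 11.9% of gained and 5.22% of lost peaks, while those present at 48h but not at 0h made up 3.30% and 4.49%. Of kept peaks these were 8.62% and 4.39%, and of all 36h peaks 8.80% and 4.27%.

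The arms agreed on kept peaks far more than on gained ones. Of the kept peaks 92.6% were kept in the mature arm, of the lost 48.9% were lost there, and of the gained 33.5% were gained there. A 12h peak of the mature arm overlapped 40.2% of the peaks that counted as gained in the unchased arm, and a 36h peak of the mature arm overlapped 18.6% of the lost. The 34611 peaks lost in both arms had an ES cell share of 9.74%, and the 4180 gained in both arms had 33.2%.

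Most lost peaks were already listed at 6h, and most gained peaks were not. A bulk peak at 6h, in either arm, overlapped 81.2% of lost, 92.4% of kept and 22.3% of gained peaks, and in the sets of both arms 93.2% of lost and 4.88% of gained. The 13321 lost peaks that had no 6h peak had an ES cell share of 26.9%, against 11.1% of the 57500 lost peaks present at 6h. The 9742 kept peaks without a 6h peak had 42.0%. The lost peaks without a 6h peak were weak and narrow, with a median score of 130 and a median width of 157 bp.

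At 60h cells were sorted by a dye that is diluted by division into fractions Q1 to Q4, and no source used here says which fraction divided most. Peaks of the fractions overlapped 0.98%, 0.61%, 1.01% and 0.44% of lost and 51.5%, 48.1%, 54.2% and 42.5% of kept peaks. Gained peaks were found at 11.6% in Q1, 8.45% in Q2, 11.7% in Q3 and 2.26% in Q4. With each fraction cut to the 57762 peaks of the shortest list the shares of gained peaks were 4.01%, 3.44%, 2.53% and 2.26%, so Q3 no longer stood with Q1. For peaks gained in both arms they were 5.84%, 5.10%, 3.01% and 2.56%. In replicated DNA isolated 2 hours after labelling at 12h, 48.8% of kept, 1.89% of lost and 4.07% of gained peaks were listed, in a list of 62704 peaks.

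**Figure D3:**
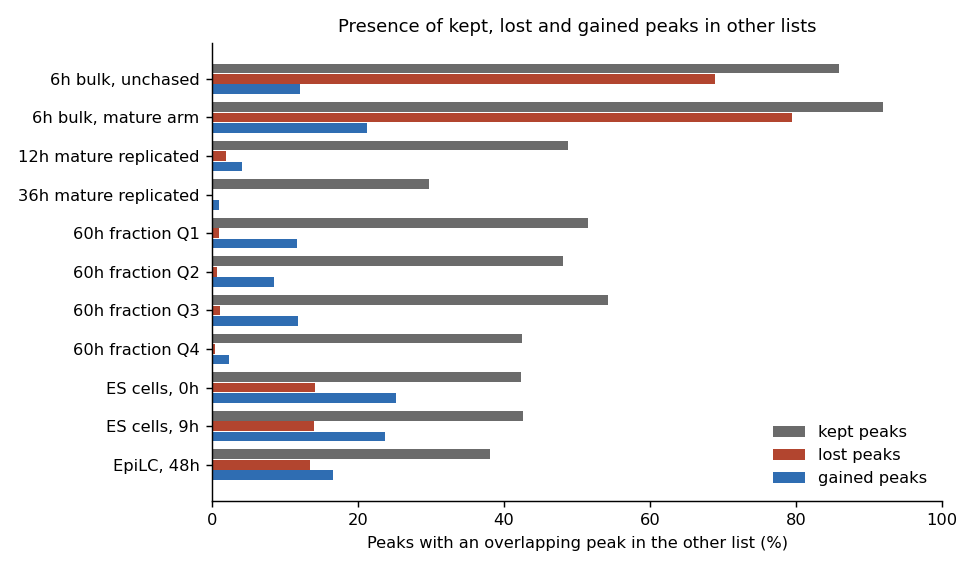
Share of kept, lost and gained peaks (x axis, percent) that overlap a peak of each other list (y axis). Lost peaks are shared with the 6h lists (68.9% and 79.4%) and hardly with the 60h fractions, while 25.2% of gained peaks overlap an ES cell peak at 0h.

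The strong lost peaks that were named lay mostly outside genes, unlike their class, of which 49.8% lay inside a gene model (48.6% of the 28169 lost at equal length). The 10 strongest by score that were also lost at equal length and in the mature arm, 1 per nearest gene, all had a 6h peak, and none had an ES cell or a 60h peak. They included chr1:172663097-172663470 (score 3698), 30.1 kb from Dusp23, a phosphatase gene, chr6:137046225-137046735 (score 2905), 8.09 kb from Rerg, a RAS-like GTPase gene, and chr15:65813974-65814361 (score 2595) inside Efr3a. The others lay nearest Ftmt, C1d, Tbl1xr1, Gsdmc, Gm10406, Lratd2 and Dlg2. Of the 10, 2 lay inside a gene model and the nearest to a gene end was 2.04 kb away. Among all peaks lost in both arms, 93.2% had a 6h peak and 9.74% an ES cell peak.

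Of the 10 strongest gained peaks chosen the same way, 8 overlapped an ES cell peak and 9 had no 6h peak. The choice asked for a gain in the mature arm too. Of all peaks gained in both arms, 33.2% overlapped an ES cell peak and 4.88% had a 6h peak. In bins 7 and 8 of the 36h list, which hold the 10 scores, 26.2% and 20.8% of all gained peaks overlapped an ES cell peak. Other 36h peaks there had 46.4% and 51.0%, so 8 of 10 does not stand for strong gained peaks. The strongest of the 10 was chr6:137696605-137697185 (score 1320), 37.9 kb from Strap, and it was listed in Q1, Q2, Q3 and Q4. A peak at chr11:88670777-88671403 (score 930) lay inside Msi2, an RNA-binding protein gene, and one at chr5:33102416-33103102 (score 965) lay 1.12 kb from Slc5a1, a sodium-glucose transporter gene. The others were nearest Txlng, Thoc7, Spink13, Fat1, Lrmda, Rorb and Spink2. Those near Thoc7 and Fat1 were the ones without an ES cell peak.

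At gene loci (gene model with 10 kb on each side) peak numbers went down for most genes with full lists. All 21887 loci together went from 158451 to 115936 peaks, 26.8% fewer, and the mature arm had 16.1% fewer, but at equal length the unchased arm had 2.75% more. The lists below are therefore set against these values, and no test was made. There were 23 lists, of which all had fewer peaks at 36h, 8 by more than all genes and 6 by more than all genes in both arms. At equal length 17 had more peaks and 6 fewer, and 3 had fewer at equal length in both arms.

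Those 3 were fibroblast matrix and surface genes, RUNX genes and the TGF-beta pathway. Matrix and surface loci went from 363 to 228 peaks (37.2% fewer, 5.79% fewer at equal length), with 21 of 26 genes having fewer and 1 more. At equal length 12 genes had fewer and 9 more. The numbers of single genes that follow are from the full lists unless stated. Fbn1, the gene of fibrillin-1, went from 53 to 30 peaks, Col5a1, a fibrillar collagen gene, from 46 to 25, and Col1a2, a type I collagen chain, from 19 to 9. At equal length Fbn1 went from 41 to 30 and Col1a2 from 10 to 9, but Col5a1 went from 23 to 25. In the mature arm at equal length Fbn1 went from 42 to 32, Col5a1 from 26 to 23 and Col1a2 from 10 to 11. RUNX loci went from 135 to 86 (36.3% fewer, 5.49% at equal length). Runx2, the osteogenic RUNX factor, went from 64 to 34 and Runx1 from 50 to 35. At equal length Runx2 went from 40 to 34 and Runx1 from 36 to 35. In the mature arm at equal length Runx2 went from 46 to 45, but Runx1 from 35 to 37. TGF-beta loci went from 316 to 212 (32.9% fewer, 6.61% at equal length), with all 17 genes having fewer. At equal length 11 genes had fewer and 5 more. Ltbp1, which holds latent TGF-beta in the matrix, went from 76 to 51, and the receptor Tgfbr2 from 21 to 11. At equal length Ltbp1 went from 52 to 51 and Tgfbr2 from 13 to 11. In the mature arm at equal length Ltbp1 went from 53 to 48, but Tgfbr2 from 10 to 13.

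Fibroblast transcription factors went from 302 to 198 peaks (34.4% fewer), but only 1.00% fewer at equal length. Zeb2, a repressor of epithelial genes, went from 28 to 17, Prrx1 from 29 to 19 and Snai2 from 4 to 2. At equal length Zeb2 went from 16 to 17, Prrx1 from 20 to 19 and Snai2 from 3 to 2. In the mature arm at equal length Zeb2 went from 18 to 19, Prrx1 from 18 to 21 and Snai2 from 3 to 2. Col1a1, the main fibroblast collagen gene, had 16 and 12 peaks, 3 of them near its ends at each time, against 8 in ES cells. Thy1, a fibroblast surface marker, had 4 and 5 against 5 in ES cells, so these numbers do not mark the cell type. The OKSM transgene sits at Col1a1, and its part in peaks there was not tested. Contractile and actin loci had 35.3% fewer peaks with full lists and 6.86% more at equal length. Of the AP-1 and immediate early loci, some of whose proteins bind the motif above, 14 of 18 had fewer peaks, in all 24.4% fewer, which is less than over all genes. YAP and TEAD loci had 22.7% fewer, and Tead1 went from 51 to 35. At equal length these loci had 2.00% more peaks, and Tead1 went from 32 to 35.

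With the full lists of the unchased arm, loci of mitosis and S phase genes had the smallest falls in peak number of the 23 lists. Mitosis genes went from 80 to 76 peaks (5.00% fewer, 22.6% more at equal length, no change in the mature arm), and 21.1% (13.4 to 31.5) of their 36h peaks were gained against 8.35% over all genes. Plk1, a mitotic kinase, went from 1 to 3 and Aurka from 3 to 4. S phase genes went from 108 to 96, with 7.14% more in the mature arm. Mcm2 and Mcm4, subunits of the replicative helicase, went from 5 to 6 and from 1 to 2. Ubiquitous promoter loci had 13.2% fewer peaks. The shares of 12h peaks lost were 13.2% for ubiquitous and 16.7% for S phase genes against 31.1% over all loci.

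Pluripotency loci had smaller falls than the 26.8% of all genes with full lists, and no test was made. Naive genes went from 103 to 82 peaks (20.4% fewer, 12.3% more at equal length), general pluripotency genes from 97 to 73 (24.7% fewer, 1.39% more), and formative genes from 137 to 114 (16.8% fewer, 20.0% more). In the mature arm they had 1.12%, 8.43% and 7.41% fewer, against 16.1% over all genes. Esrrb, which has 45 peaks in ES cells, had 12 at 12h and 10 at 36h, but 9 and 10 at equal length. Nanog had 2 at both times against 6 in ES cells, Zfp42 had 1 and 0 against 10, and Sox2 had 4 and 3 against 5. At equal length Zfp42 had 0 at both times, and Nanog and Sox2 had the same numbers as with full lists. Pou5f1 had 7 at both times. The transgene carries the coding sequences of Pou5f1, Sox2 and Klf4, and its part in peaks there was not tested. Cdh1, the epithelial cadherin, had 17 and 14 peaks and Epcam 1 and 1, and at equal length Cdh1 had 13 and 14.

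Loss of every peak within 1 kb of a gene's ends, in both arms, was seen at 343 genes, and a first such peak in both arms at 44. Both numbers are from full lists, which were longer at 12h in both arms, and the part of list length in them was not tested. Of all 21887 genes, 15488 had such a peak at 12h in the unchased arm. The 366 list genes were not tested against the share over all genes, so those named below only describe single loci. Among list genes, those left without one were Fap, a fibroblast surface protease (8 to 3 peaks over the locus), Mmp3, a stromelysin (1 to 0), Batf, Runx1, Il1a, Sall4, Pax6 and Ivl. In the unchased arm at equal length Sall4 and Pax6 had no gene-end peak at 12h either, while the others went from 1 to 0. L1td1 and Cdkn1a, the p53-induced cell cycle inhibitor, gained one. The Cdkn1a locus went from 4 to 6 peaks, with 0 and 3 near its ends, and the mature arm had 0 and 1. Its neighbourhood in ES cells has 8 peaks over the locus.

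**Figure D4:**
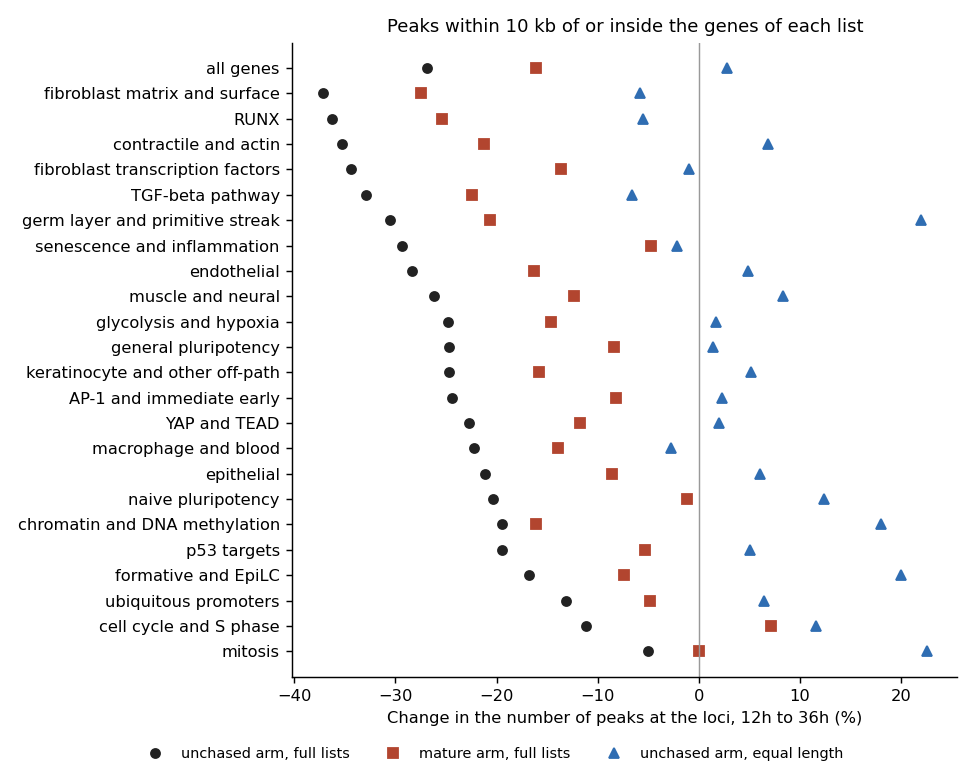
Change in the number of peaks at the loci of each gene list from 12h to 36h (x axis, percent) for the full lists of the unchased arm, those of the mature arm and the unchased arm at equal list length. All genes together read -26.8%, -16.1% and 2.75%, and matrix, RUNX and TGF-beta lists lie below these in all 3.

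The largest falls in number were at long genes, which a ranking by number of peaks favours because they hold many. Rbms3, an RNA-binding protein gene, went from 143 to 74 peaks, with 71 lost and 4 gained, and had 128 at 6h and 36 in Q1. Prkg1, a cGMP-dependent kinase gene, went from 136 to 75, Auts2 from 118 to 65, Pde4d from 142 to 91 and Macrod2 from 124 to 75. Tenm3, Gpc6, Rad51b, Npas3 and Magi1 completed the 10. At equal length the falls were smaller: Rbms3 went from 88 to 74, Prkg1 from 94 to 75, Auts2 from 78 to 65 and Pde4d from 111 to 91. Macrod2 then went from 82 to 75 and Magi1 from 63 to 62. The largest rises that kept their direction at equal length and in the mature arm were small: Cdc37l1, a co-chaperone gene, went from 3 to 7, Ift122, an intraflagellar transport gene, from 10 to 14, Mov10, an RNA helicase gene, from 5 to 9 and Ppp2r5b from 3 to 7. Those of 4931406C07Rik, Atg2a, Cdk10, Col9a3, Dhx35 and Dmrtc2 were by 3 peaks each. In all 3 versions 3801 genes had fewer and 539 had more peaks.

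Markers of other cells that a fibroblast culture can hold were read the same way. Loci of macrophage and blood genes had 45 peaks at 12h and 35 at 36h, endothelial 120 and 86, muscle and neural 88 and 65 and keratinocyte and other off-path 81 and 61, which is 22.2% to 28.3% fewer, near the 26.8% of all genes. Csf1r, the macrophage growth factor receptor, went from 10 to 4. Of the 10 macrophage and blood genes 3 had fewer peaks, 1 had more and 6 had the same number, so Csf1r does not stand for its list. A lower share of such cells and a closed site within the cells cannot be told apart in bulk lists, and their part in the results was not tested.

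Aphidicolin, an inhibitor of the replicative DNA polymerases, was used at 14h, and these libraries took no part in naming the peaks. Peaks of the 3 untreated libraries overlapped 23.1%, 22.4% and 17.8% of lost peaks, and those of the 3 aphidicolin libraries 34.1%, 42.7% and 39.0%. The groups did not overlap, but the aphidicolin lists were longer, with 148292 to 163947 peaks against 116939 to 129546. With every list cut to 116939 peaks the untreated libraries had 18.2%, 18.3% and 17.8% of lost peaks and the aphidicolin libraries 19.8%, 20.7% and 20.1% (18.1% ± 0.278 against 20.2% ± 0.459, SD, n = 3 each, two-sided exact permutation p = 0.1, the smallest that 3 against 3 can give). Kept peaks differed likewise (74.8% ± 0.91 against 76.6% ± 0.748, exact permutation p = 0.1), with groups that did not overlap. Gained peaks had 8.98% ± 0.68 and 10.2% ± 0.52 (exact permutation p = 0.1), a difference of 1.21 points, also without overlap. For peaks gained in both arms the groups did overlap, with 8.21% ± 0.982 and 8.68% ± 0.392 (exact permutation p = 0.5). Peaks lost in both arms had 17.2% ± 0.406 and 20.4% ± 0.556, and those kept in both arms 78.8% ± 0.899 and 80.7% ± 0.695 (exact permutation p = 0.1 each).

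Read counts in the same libraries were tested over 138996 regions with edgeR's quasi-likelihood test and Benjamini-Hochberg adjustment at 0.05, where 18% of all regions were called higher and 17.9% lower after aphidicolin. Of 20815 regions at lost peaks, 5979 (28.7%) were called higher and 1107 (5.32%) lower. Of 109375 at kept peaks 15912 (14.5%) were higher and 23148 (21.2%) lower, and of 2548 at gained peaks 885 (34.7%) were higher and 156 (6.12%) lower. The median log2 CPM of lost regions was 0.65, 0.63 and 0.66 in the untreated and 0.84, 0.88 and 0.89 in the aphidicolin libraries, which did not overlap. Regions may have entered the count table through the longer aphidicolin lists alone, which can favour higher calls, and this was not tested. Over the 100668 regions with a peak in all 6 lists, 26.4% of 8508 lost regions were higher against 15.5% of kept and 17.6% of gained regions. The size of the change followed the strength of a region, with weak regions higher and strong ones lower. With offsets that follow strength, in the same 100668 regions, 16.0% of lost regions were higher and 9.27% lower, against 10.95% and 10.6% of kept and 9.69% and 13.9% of gained regions. The median log2 fold change of lost regions was then 0.05, against 0.23 with all regions and no such offsets. Scaling by library totals gave 43.3% of lost regions higher and 2.29% lower, and moved the median log2 fold change of all regions from 0.02 to 0.18. Without aphidicolin library b the count of lost regions called higher was 3807, and of kept regions 9234 higher and 14124 lower. Without aphidicolin library c those of kept regions were 9776 and 14838.

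Of the 10 strongest lost peaks named above, all had a region in the count table, and 2 were called higher after aphidicolin. Of all regions 18% were called higher, and of regions at lost peaks 28.7%, so 2 of 10 does not set the named peaks apart. The region in Efr3a had a log2 CPM of 1.37, 1.58 and 1.70 untreated and 2.21, 2.43 and 2.26 with aphidicolin, a 1.69-fold difference (edgeR adjusted p = 0.000349) with no overlap. The region nearest C1d was 1.38-fold higher (edgeR adjusted p = 0.0199). That nearest Dusp23 had a ratio of 1.08 (edgeR adjusted p = 0.602). Of the 10 gained peaks 1 had a region, that nearest Fat1, which was 1.38-fold higher (edgeR adjusted p = 0.0422).

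**Figure D5:**
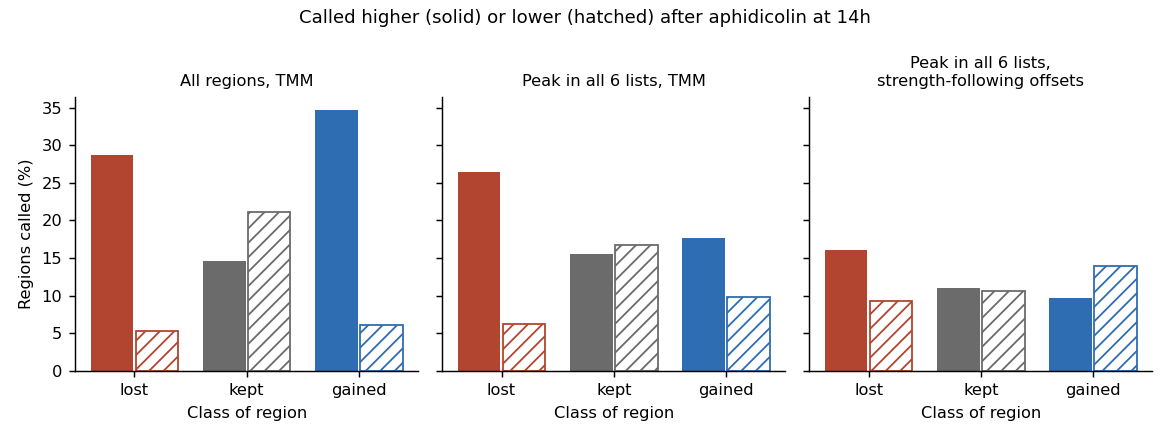
Share of regions at lost, kept and gained peaks (x axis) called higher (solid bars) or lower (hatched bars) after aphidicolin at 14h (y axis, percent of regions tested, edgeR) over all regions, over those listed in all 6 libraries, and over the latter with strength-following offsets. The lost class goes from 28.7% higher to 26.4% and 16.0%.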

How the data were processed

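ATAC-seq peaks were listed by the authors with a score per peak; per the submitters' processing notes, MACS2 2.2.0, Bowtie2 2.2.5, bedtools 2.26.0, cutadapt 2.2.0, SAMtools 1.4.1 and bcl2fastq 2.19.1 were used on mm10, with roles and parameters not given in the sources used here. Scores ranked peaks within a list only. Per the peak names, the bulk lists were called on merged replicates, and the unchased lists were matched to their groups by elimination. The deposited counts of the aphidicolin experiment (41183769 to 78677381 per library) were raw read counts per region, and their column numbers are tied to no sample. Whether replicates were separate cultures is not labelled, so p-values may measure technical spread.

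Overlaps, gene distances (RefSeq, GRCm38.p6, starts for 17492 of 21887 genes) and Wilson intervals were computed in Python 3.11.15 with scipy 1.17.1. Counts were tested with edgeR 4.0.16 (TMM, filterByExpr, quasi-likelihood, two-sided) in R 4.3.3, with DESeq2 1.42.0 as an alternative, after tests on simulated data. Members and lists were chosen with earlier results of these data known. Named were the 10 strongest lost and gained peaks and the 10 largest falls and rises in locus count that held at equal length and in the mature arm, up to 4 genes per list, list genes whose gene-end peaks changed in both arms, and 20 set genes. Alternatives were equal list length, score minimum, overlap, arm, gene-end distance, flank, scaling, filter, tool and left-out libraries.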

Additional observations from a re-analysis of the deposited data

Results flagged for a closer look

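Peaks at the loci of the 20 cell cycle and S phase genes went in opposite directions in the arms, with 11.1% fewer at 36h than at 12h in the unchased arm (a change of -11.1%) and 7.14% more in the mature arm. Each arm has 1 list per time, and the difference was not tested.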

How the results depend on the processing

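With the 12h list cut to the length of the 36h list, 20.5% of peaks were lost and 21.8% gained, the gene-end shares of lost, kept and gained peaks were 3.48%, 14.9% and 5.66%, and the ES cell shares 12.1%, 44.1% and 29.6%. With a score of 100 or more in both lists, 36.5% were lost and 7.79% gained, kept and gained peaks had gene-end shares of 14.3% and 4.25%, and the ES cell shares were 14.4%, 43.7% and 27.8%. With an overlap of 50% of the shorter peak, 36.0% were lost and 9.37% gained. The mature arm gave 27.1% lost and 7.13% gained, gene-end shares of 3.52%, 13.2% and 5.86%, and ES cell shares of 10.6%, 40.9% and 38.7%. At equal length it gave 16.8% and 15.7%, gene-end shares of 3.02% for lost and 6.94% for gained, and ES cell shares of 8.94%, 41.6% and 36.2%, an alternative chosen after seeing the data. Peaks absent from both bulk lists of the other time made up 28.9% and 5.43%, with gene-end shares of 3.64% for lost and 4.33% for gained and ES cell shares of 12.6% and 30.1%. Gene-end shares of lost, kept and gained peaks were 2.08%, 11.3% and 2.53% within 500 bp and 8.63%, 19.1% and 10.3% within 2500 bp. Kept peaks had the highest gene-end and ES cell shares in every one of these settings, and lost peaks the lowest.

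At equal list length the locus change turned to more peaks for all genes (2.75%), contractile and actin (6.86%), YAP and TEAD (2.00%), AP-1 and immediate early (2.27%), epithelial (6.03%), mitosis (22.6%), naive pluripotency (12.3%), germ layer and primitive streak (22.0%), cell cycle and S phase (11.6%), formative and EpiLC (20.0%), general pluripotency (1.39%), p53 targets (5.06%), glycolysis and hypoxia (1.72%), ubiquitous promoters (6.45%), chromatin and DNA methylation (18.05%), endothelial (4.88%), muscle and neural (8.33%) and keratinocyte and other off-path (5.17%). Fewer 12h peaks enter by construction. The cell cycle and S phase change also turned in the mature arm (7.14%) and without flanks (4.65%), and the cause was not tested.

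For regions called after aphidicolin, library totals in place of TMM gave 9021 lost regions higher and 476 lower, 28906 kept higher and 10273 lower, and 74 gained lower. Offsets that follow region strength gave 2738 lost higher and 1912 lower, 12132 kept lower, and 396 gained higher and 273 lower. Regions with a peak in all 6 lists, which are fewer, gave 2248 lost higher and 534 lower, 15141 kept lower, and 109 gained higher and 61 lower. Both together, chosen after seeing the data, gave 1364 lost higher, 9897 kept higher and 9564 lower, and 60 gained higher and 86 lower. Classes of the mature arm gave 671 lost regions lower and 250 gained lower. DESeq2 size factors, no filter and DESeq2 kept each count within 1.5 times. Leaving out each library in turn gave 3807 to 6602 lost regions higher and 664 to 1235 lower, 9234 to 19848 kept higher and 14124 to 26141 lower, and 596 to 1017 gained higher and 90 to 158 lower. For lost regions called lower, the counts were 664 without aphidicolin library b, 681 without aphidicolin library c and 734 without untreated library b, and for gained regions called lower 90 without aphidicolin library b and 100 without untreated library b. For the counts and the bulk lists, no paired analysis was possible because the numbers of the count columns are tied to no sample and the bulk lists merge the replicates. The 14h peak lists carry replicate numbers, and with the replicate block, added after seeing the data, aphidicolin lists at equal length held 2.12, 1.86 and 1.21 percentage points more of lost, kept and gained peaks, higher in 3 of 3 pairs (two-sided exact sign-flip permutation p = 0.25 each, the smallest that 3 pairs can give). Deviations of same-numbered libraries from the group means correlated at 0.0309, -0.00372 and 0.00988, and those of differently numbered ones at -0.0312 to 0.0229. With 3 libraries per group these values cannot decide whether same-numbered libraries shared a culture or batch.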
